A study of Mus musculus with 18 samples.

Results

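The lysyl oxidase family of the mouse consists of the genes Lox, Loxl1, Loxl2, Loxl3 and Loxl4. These 5 genes were chosen by name among the 57180 genes of the deposited count table, and all 5 passed the filter on low counts that left 15832 genes for testing. RNA had been sequenced from smooth muscle cells of the thoracic aorta of C57BL/6 mice in 18 libraries. The groups were Itgav siRNA with TGF-β, scramble siRNA with TGF-β, Itgav siRNA with PDGF-BB, scramble siRNA with PDGF-BB, Itgav siRNA without a stimulus and scramble siRNA without a stimulus, with 3 libraries in each. All groups had thus been transfected with an siRNA, and the scramble siRNA was the control. Itgav encodes integrin αV, a chain of receptors that bind extracellular matrix; the title of the series concerns aneurysm and dissection of the aorta. The sources used here give no doses, times, siRNA sequences or ages of the mice.

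Lysyl oxidases are secreted copper enzymes that oxidise lysine side chains of collagens and elastin, after which the chains crosslink to each other and the fibres become insoluble and strong. Lox and Loxl1 are made with a propeptide that the protease Bmp1 and its relatives remove, whereas Loxl2, Loxl3 and Loxl4 carry scavenger receptor domains in front of the same catalytic domain. In the aorta the crosslinked elastin sheets and collagen bear the load of the pulse. Mice that lack Lox die around birth with aortic aneurysms, and mice that lack Loxl1 fail to maintain elastic fibres.

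Of the 5 genes, 1 had an entry in the RefSeq promoter table used here (build GRCm38.p6): Loxl4, and its sequence is shown for that reason. The 250 bases before its RefSeq start site, chr19:42612807-42613056 on the minus strand, are printed 5′ to 3′ with the letters GGGCGG (the GC box) in capitals.
Loxl4 promoter: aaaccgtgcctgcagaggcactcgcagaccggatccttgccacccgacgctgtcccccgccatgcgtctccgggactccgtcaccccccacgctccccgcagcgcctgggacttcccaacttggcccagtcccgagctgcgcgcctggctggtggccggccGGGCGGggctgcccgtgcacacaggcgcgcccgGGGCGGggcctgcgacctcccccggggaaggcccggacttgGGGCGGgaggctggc
Both strands were searched for 6 motifs. GGGCGG was found 3 times, on the strand of the gene, with its first base 89, 56 and 15 bases before the start site, and 32.7% of the 32851 promoter windows of this length hold it on either strand. The SMAD box CAGACA (in 17.1% of windows), the AP-1 site TGANTCA (6.75%), the TEAD site GGAATG (12.6%), the hypoxia response core ACGTG (16.6%) and the TATA box TATAAA (12.4%) were not among these 250 bases. None of these motifs overlaps another here, and a match or its absence says nothing of whether a factor was bound.

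In the GENCODE M21 annotation of GRCm38, Lox (ENSMUSG00000024529) lies on chromosome 18 from 52516067 to 52529867 on the minus strand. Loxl1 (ENSMUSG00000032334) lies on chromosome 9 from 58287738 to 58313186 on the minus strand, and Loxl2 (ENSMUSG00000034205) on chromosome 14 from 69609068 to 69695834 on the plus strand. Loxl3 (ENSMUSG00000000693) lies on chromosome 6 from 83034173 to 83052562 on the plus strand, and Loxl4 (ENSMUSG00000025185) on chromosome 19 from 42593982 to 42612813 on the minus strand. This annotated start of Loxl4, 42612813, lies inside the promoter window printed above, which ends at the RefSeq start. The 5 genes therefore sit on 5 different chromosomes. Genes on the opposite strand overlap 3 of them. Since the strand of counting is not given, reads in the stretches where these pairs overlap cannot be told apart. AC161119.1, opposite Lox, averaged 0.946 to 9.22 CPM (counts scaled to one common library total) of all counts over the 6 groups. Gm27177, opposite Loxl2, averaged 25.7 to 40.7 on the same scale, and Htra2, opposite Loxl3, 24.9 to 39.1.

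Library totals ran between 17705072 and 21592916 estimated counts. Levels are given as CPM scaled by TMM, a normalisation to the bulk of genes, and errors of levels are SDs over 3 libraries. Log2 fold changes are given with standard errors from edgeR's quasi-likelihood test, and a gene was called at a Benjamini-Hochberg adjusted p under 0.05 over all 15832 genes. Whether the 3 libraries of a group came from separate cultures is not stated in the labels, and p-values reflect only how these libraries spread, which may be technical. Itgav averaged 27.0 ± 2.35 CPM in Itgav siRNA libraries and 524 ± 45.6 CPM in scramble libraries with TGF-β. With PDGF-BB it averaged 22.8 ± 3.33 CPM in Itgav siRNA and 321 ± 14.6 CPM in scramble libraries, and without a stimulus 15.1 ± 1.20 CPM in Itgav siRNA and 316 ± 14.2 CPM in scramble libraries. In the siRNA comparisons, lower Itgav and any further action of the siRNA cannot be told apart. Ifit3, an interferon-stimulated gene singled out after its values were seen, averaged 243, 1975 and 3080 CPM in the Itgav siRNA groups with TGF-β, with PDGF-BB and without a stimulus, against 30.7, 38.0 and 78.0 CPM in the scramble groups of the same media. A chi-square of counts per degree of freedom, which sampling noise alone would hold near 1, was highest for scramble PDGF-BB replicate 1, at 12.6 and 9.22 against the other two libraries of its group, and scramble unstimulated replicate 1 stood apart in its Lox level. Without scramble PDGF-BB replicate 1, 14 of the 15 member results that use it kept their direction and their side of the threshold, and without scramble unstimulated replicate 1, 24 of 25 did. The exceptions were Lox (without the first) and Loxl2 (without the second) in the test of whether the siRNA effect differed between PDGF-BB and no stimulus.

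The smooth muscle markers Acta2, Tagln, Cnn1, Myh11, Smtn, Lmod1, Des and Myocd all averaged at least 1 CPM in every group, but their summed level differed between groups. It was 2998 to 3163 CPM in Itgav siRNA and 6218 to 6723 CPM in scramble libraries with TGF-β, 391 to 409 CPM in Itgav siRNA and 992 to 1029 CPM in scramble libraries with PDGF-BB, and 1021 to 1140 CPM in Itgav siRNA and 2101 to 2150 CPM in scramble libraries without a stimulus. Acta2 and Tagln made up most of that sum, and the single markers did not all follow it. With Itgav siRNA, 8 of the 8 markers were called lower with TGF-β, 7 with PDGF-BB and 6 without a stimulus, and none higher. Of all genes, 48.4%, 59.3% and 53.4% were called in these comparisons, in the same order. TGF-β raised 5 and lowered 3 of them in Itgav siRNA cells, where Myh11 averaged 7.39 CPM with TGF-β and 20.5 CPM without a stimulus, and raised 7 and lowered 1 in scramble cells. PDGF-BB raised 1 and lowered 5 in Itgav siRNA cells, and raised 1 and lowered 6 in scramble cells. With TGF-β, 57.5% of all genes were called in Itgav siRNA and 48.3% in scramble cells. With PDGF-BB these shares were 36.4% and 36.1%. The 10 adventitial fibroblast markers summed to 142 to 148 CPM in Itgav siRNA and 156 to 169 CPM in scramble libraries with TGF-β, and to between 573 and 912 CPM in the other 12 libraries. In the groups without TGF-β that sum was mostly Ly6a, followed by Cd34. With TGF-β, Serpinf1 averaged 64.6 CPM in Itgav siRNA and 58.4 CPM in scramble cells. Ly6a averaged 40.7 CPM in Itgav siRNA and 61.2 CPM in scramble cells with TGF-β. By single genes, Itgav siRNA raised 3 and lowered 2 of the 10 with TGF-β (median log2 fold change 0.24), raised 6 and lowered 1 with PDGF-BB, and raised 7 and lowered 1 without a stimulus. Dpt averaged 7.02 CPM in Itgav siRNA and 2.09 CPM in scramble cells with TGF-β. Pdgfra averaged 9.93 CPM in Itgav siRNA and 6.55 CPM in scramble cells with TGF-β. Cd34 went the other way, at 12.1 CPM in Itgav siRNA and 25.6 CPM in scramble cells, and so did Ly6a. TGF-β raised 3 and lowered 6 in Itgav siRNA cells and raised 2 and lowered 7 in scramble cells. The shares of all genes called in these comparisons were those given above for the smooth muscle markers. Macrophage markers summed to at most 28.6 CPM in any library, with Adgre1, C1qa or C1qb at 0 in all 3 libraries of some groups. Cd68, Csf1r, Cd14 and Lyz2, from the same list, averaged at least 1 CPM in every group. Cd68 averaged 10.7 CPM in Itgav siRNA and 9.81 CPM in scramble cells with PDGF-BB. Without a stimulus it averaged 2.21 CPM in Itgav siRNA and 2.105 CPM in scramble cells. The 10 endothelial markers summed to 88.6 to 150.2 CPM and the 6 mesothelial markers to 23.4 to 229.6 CPM over all libraries. The mesothelial sum was lower with Itgav siRNA in each medium. With TGF-β it was 23.4 to 28.9 CPM in Itgav siRNA and 58.0 to 60.6 CPM in scramble libraries. With PDGF-BB these ranges were 84.9 to 96.0 and 201.3 to 229.6 CPM, and without a stimulus 93.2 to 95.8 and 157 to 167 CPM. The median log2 fold change of the 6 genes with the siRNA was -0.94, -0.78 and -1.04 in that order. Fewer cells of a type and less RNA per cell cannot be told apart in such bulk samples, and the part of these shifts in the results below was not tested.

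Lox was the most abundant member in every group on a scale of CPM per kilobase of exon, which allows genes of different length to be compared. It averaged 1134 ± 32.6 CPM per kilobase in Itgav siRNA and 1231 ± 57.0 CPM per kilobase in scramble cells with TGF-β. With PDGF-BB it averaged 102 ± 4.55 CPM per kilobase in Itgav siRNA and 165 ± 19.3 CPM per kilobase in scramble cells. Without a stimulus it averaged 309 ± 4.70 CPM per kilobase in Itgav siRNA and 449 ± 39.3 CPM per kilobase in scramble cells. In scramble cells with TGF-β, Lox took 0.551% of all counts and ranked between 8 and 10 among all genes by count, while in Itgav siRNA cells with PDGF-BB it took 0.0516% and ranked between 236 and 263. Loxl4 was the least abundant member in every group, between 6.67 ± 0.511 CPM per kilobase in unstimulated Itgav siRNA cells and 21.9 ± 1.75 CPM per kilobase in scramble cells with TGF-β. Loxl1, Loxl2 and Loxl3 lay in between, from 19.6 ± 0.928 CPM per kilobase (Loxl3, unstimulated scramble) to 101 ± 1.39 CPM per kilobase (Loxl3, Itgav siRNA with TGF-β).

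The make-up of the family shifted most with PDGF-BB. The share of Lox was also lower with Itgav siRNA than with scramble siRNA in each medium, with no overlap of libraries. Lox supplied 80.9% ± 0.481 of the summed CPM per kilobase of the 5 genes in Itgav siRNA cells with TGF-β and 83.02% ± 0.901 in scramble cells with TGF-β. With PDGF-BB its share was 56.9% ± 1.21 in Itgav siRNA and 63.1% ± 3.64 in scramble cells, against 78.6% ± 0.394 in unstimulated Itgav siRNA and 83.3% ± 1.41 in unstimulated scramble cells. All 6 PDGF-BB libraries, at 55.5 to 65.9%, lay below all other libraries, the lowest of which was at 78.2%. The summed level itself was 1401 ± 32.4 CPM per kilobase in Itgav siRNA and 1483 ± 55.4 in scramble cells with TGF-β, 179.8 ± 5.89 in Itgav siRNA and 260.4 ± 16.0 in scramble cells with PDGF-BB, and 393 ± 4.27 in Itgav siRNA and 538 ± 38.5 in scramble cells without a stimulus. Loxl3 was the second most abundant member in Itgav siRNA cells with TGF-β, where it supplied 7.19% ± 0.232, against 5.003% ± 0.251 in scramble cells with TGF-β.

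**Figure D1:**
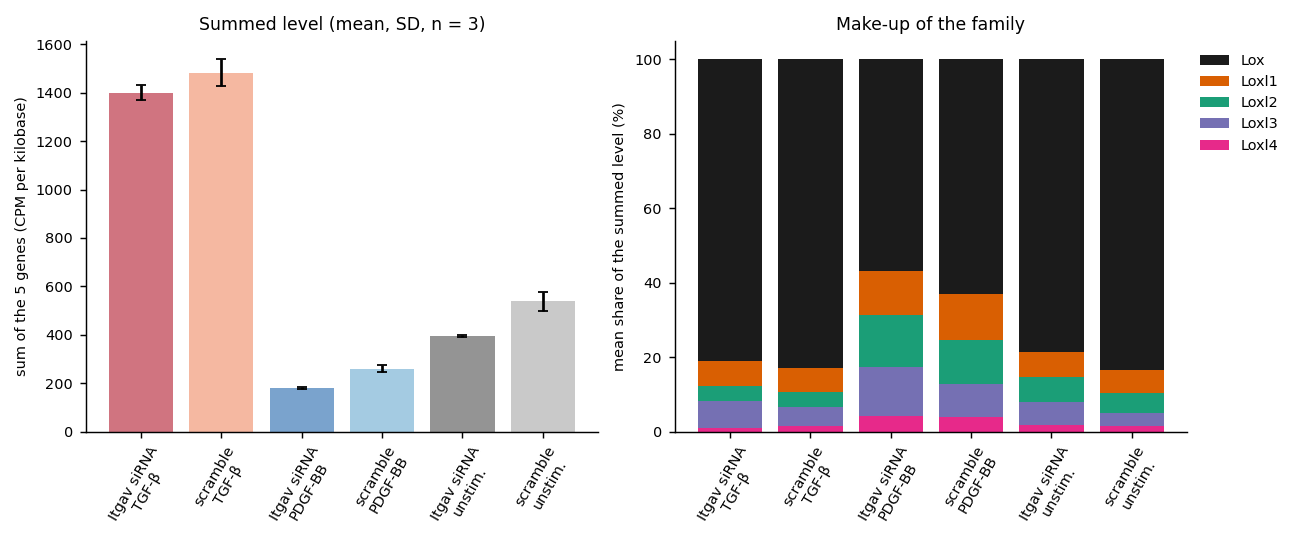
Left, summed level of the 5 lysyl oxidase genes in CPM per kilobase of exon (bars are means and lines SDs of 3 libraries) in the 6 groups. Right, mean share of each gene in that sum in percent; Lox makes up 56.9 and 63.1% with PDGF-BB and 78.6 to 83.3% in the other groups.

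TGF-β raised every member of the family, in Itgav siRNA cells and in scramble cells. In scramble cells all 5 genes were called higher, where 48.3% of all genes tested were called and 23.4% called higher; 5.5% of all genes were higher by at least 2-fold, as all 5 members were. In Itgav siRNA cells all 5 genes were called higher as well, where 57.5% of all genes were called and 27.9% called higher. Loxl4, at 1.93-fold, was the only member below 2-fold in Itgav siRNA cells. The libraries of the groups did not overlap for any member in either comparison, which held for 55% of all genes in scramble cells and 64.6% in Itgav siRNA cells. The median log2 fold change of the 5 genes was 1.86 in Itgav siRNA and 1.49 in scramble cells, against medians of -0.023 and -0.008 over all genes in the same comparisons.

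Lox stood at 5352, 5596 and 5307 CPM in Itgav siRNA libraries with TGF-β, against 1493, 1489.6 and 1452 CPM in unstimulated Itgav siRNA libraries. It stood at 5836, 6175 and 5637 CPM in scramble libraries with TGF-β, against 1929, 2272 and 2233 CPM in unstimulated scramble libraries. Both comparisons were well separated, and the low unstimulated value was that of replicate 1. The rise was 3.67-fold in Itgav siRNA cells (log2 fold change 1.87 ± 0.067, edgeR adjusted p = 2.1e-16) and 2.74-fold in scramble cells (1.46 ± 0.066, edgeR adjusted p = 3.2e-14). Without scramble unstimulated replicate 1 the change in scramble cells was 1.38 on the log2 scale.

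Loxl1, whose product is tethered to elastic fibres, stood at 314, 301 and 313 CPM in Itgav siRNA libraries with TGF-β, against 85.6, 84.0 and 86.0 CPM without a stimulus. In scramble libraries it stood at 288, 299.7 and 349 CPM with TGF-β, against 115, 113 and 106 CPM without a stimulus. The lowest TGF-β library was thus well over the highest unstimulated one. The log2 fold change was 1.86 ± 0.069 in Itgav siRNA cells (edgeR adjusted p = 4.3e-16) and 1.49 ± 0.067 in scramble cells (edgeR adjusted p = 3.4e-14).

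Loxl2, which acts on type IV collagen of basement membranes among other substrates, stood at 307, 339 and 317 CPM in Itgav siRNA libraries with TGF-β, against 149.6, 145 and 148 CPM without a stimulus. In scramble libraries it stood at 328, 349 and 310.2 CPM with TGF-β, against 148, 156 and 155 CPM without a stimulus. The groups were far apart and nearly the same in both siRNA states. The log2 fold change was 1.12 ± 0.051 in Itgav siRNA cells (edgeR adjusted p = 2e-14) and 1.10 ± 0.051 in scramble cells (edgeR adjusted p = 5.2e-14).

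Loxl3 showed the largest log2 fold change of the 5 genes in both siRNA states. It stood at 459.6, 460.1 and 471 CPM in Itgav siRNA libraries with TGF-β, against 111, 108 and 115 CPM without a stimulus, and at 331, 342 and 350.2 CPM in scramble libraries with TGF-β, against 95.1, 88.7 and 87.0 CPM without a stimulus. The 3 highest libraries of all 18 were those of Itgav siRNA with TGF-β. The rise was 4.16-fold in Itgav siRNA cells (2.06 ± 0.049, edgeR adjusted p = 2.4e-19) and 3.78-fold in scramble cells (1.92 ± 0.05, edgeR adjusted p = 2.4e-18).

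Loxl4 stood at 50.7, 55.3 and 56.4 CPM in Itgav siRNA libraries with TGF-β, against 28.01, 30.3 and 26.0 CPM without a stimulus. In scramble libraries it stood at 97.0, 96.4 and 84.0 CPM with TGF-β, against 31.0, 31.6 and 33.6 CPM without a stimulus. Here the scramble libraries with TGF-β were the high ones, well above those with Itgav siRNA. The rise was 1.93-fold in Itgav siRNA cells (0.95 ± 0.07, edgeR adjusted p = 8.8e-11) and 2.88-fold in scramble cells (1.53 ± 0.067, edgeR adjusted p = 2e-14).

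**Figure D2:**
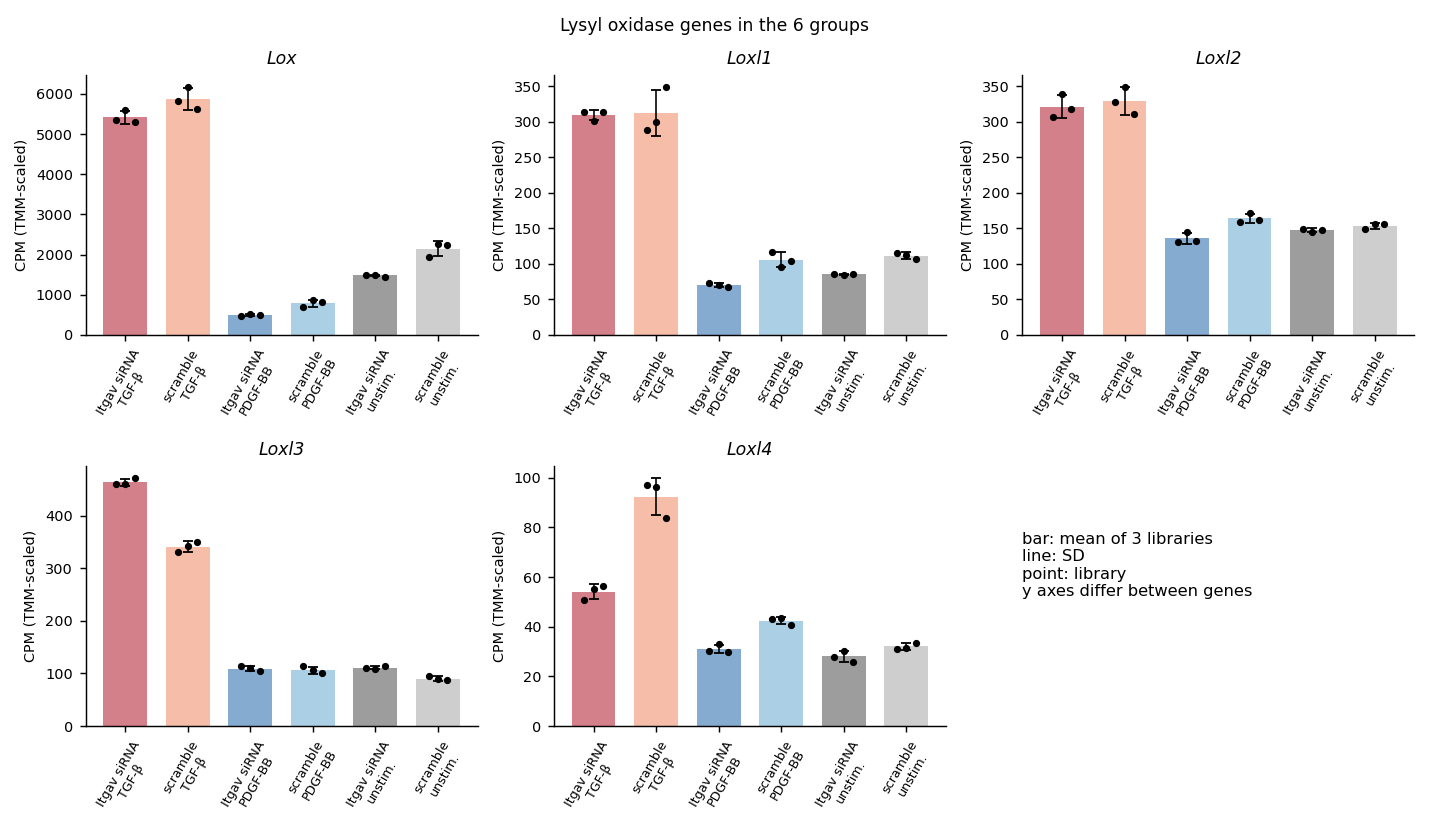
Level in CPM of each lysyl oxidase gene in the 6 groups, with bars for means, lines for SDs and points for the 3 libraries of a group; the y axes differ between genes. All 6 TGF-β libraries lie above all 12 others for each gene, and Lox is lowest with PDGF-BB, at 466 to 869 CPM.

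PDGF-BB lowered Lox strongly, and the other members had log2 fold changes between -0.28 and 0.40. In Itgav siRNA cells 2 of the 5 genes were called, both lower, where 36.4% of all genes were called and 19.2% called lower. In scramble cells 3 of 5 were called, 1 lower and 2 higher, where 36.1% of all genes were called. The libraries did not overlap for 3 members in Itgav siRNA cells (48.2% of all genes) and for 4 members in scramble cells (44.1% of all genes). The unstimulated controls are those of the TGF-β comparisons, so the responses to the 2 stimuli share libraries.

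Lox stood at 466, 509.8 and 489 CPM in Itgav siRNA libraries with PDGF-BB and at 688, 869 and 806 CPM in scramble libraries with PDGF-BB, against the unstimulated values given above. Every PDGF-BB library was below every unstimulated library of its siRNA state. Lox fell to 33.0% of the unstimulated level in Itgav siRNA cells (-1.60 ± 0.066, edgeR adjusted p = 1.6e-14) and to 36.7% in scramble cells (-1.45 ± 0.066, edgeR adjusted p = 1.3e-13). Without scramble PDGF-BB replicate 1, the lowest library of its group, the change in scramble cells was -1.355 on the log2 scale.

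Loxl1 stood at 73.3, 70.5 and 66.9 CPM in Itgav siRNA libraries with PDGF-BB, all below the unstimulated 84.0 to 86.0 CPM, a fall of 0.28 on the log2 scale (-0.28 ± 0.07, edgeR adjusted p = 0.0033). In scramble cells it stood at 117, 95.4 and 104 CPM with PDGF-BB, which overlapped the unstimulated 106 to 115 CPM, and the log2 fold change of -0.07 had a 95% interval from -0.22 to 0.07 (edgeR adjusted p = 0.42). Loxl2 stood at 130.04, 145 and 133 CPM in Itgav siRNA and 159, 171 and 161 CPM in scramble libraries with PDGF-BB. These values were just below the unstimulated ones in Itgav siRNA cells and just above them in scramble cells. Neither difference passed: -0.12 with an interval from -0.23 to -0.01 in Itgav siRNA cells (edgeR adjusted p = 0.078) and 0.10 with an interval from -0.01 to 0.20 in scramble cells (edgeR adjusted p = 0.15). Without Itgav siRNA PDGF-BB replicate 2 the fall of Loxl2 in Itgav siRNA cells was -0.172 and passed (adjusted p = 0.022).

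Loxl3 stood at 114, 109.8 and 104 CPM in Itgav siRNA libraries with PDGF-BB, overlapping the unstimulated group (-0.03, 95% interval -0.13 to 0.08, edgeR adjusted p = 0.73). In scramble libraries it stood at 114, 106 and 100.2 CPM, above every unstimulated library, and was called higher (0.24 ± 0.05, edgeR adjusted p = 0.00067). Loxl4 stood at 30.3, 33.1 and 29.8 CPM in Itgav siRNA libraries with PDGF-BB, overlapping the unstimulated group (0.15, edgeR adjusted p = 0.12), and at 43.1, 43.3 and 40.8 CPM in scramble libraries, all above the unstimulated 31.0 to 33.6 CPM (0.40 ± 0.069, edgeR adjusted p = 8.2e-05). Without scramble PDGF-BB replicate 1 these rises were 0.193 for Loxl3 and 0.394 for Loxl4, and without scramble unstimulated replicate 1 they were 0.276 and 0.376.

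Itgav siRNA acted on the members in different directions. With TGF-β, 2 of 5 genes were called, Loxl3 higher and Loxl4 lower, where 48.4% of all genes were called. With PDGF-BB, 4 of 5 were called, all lower, where 59.3% of all genes were called and 29.9% called lower. Without a stimulus, 4 of 5 were called, Loxl3 higher and the other 3 lower, where 53.4% of all genes were called. The libraries did not overlap for 3 members with TGF-β (55.6% of all genes), 4 with PDGF-BB (61.9%) and 4 without a stimulus (61.4%). These shares of all genes are large, so counts over 5 genes say little of the family as a whole. With TGF-β the count was close to the background. With PDGF-BB and without a stimulus it was above the background, and neither count was tested against it. The values of the single genes follow.

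Lox was lower with Itgav siRNA in unstimulated cells, at 68.9% of the scramble level (-0.54 ± 0.065, edgeR adjusted p = 3.6e-07), and in PDGF-BB cells, at 62.1% (-0.69 ± 0.065, edgeR adjusted p = 7.9e-09). In both, the 3 Itgav siRNA libraries were below the 3 scramble libraries. Without scramble unstimulated replicate 1 the unstimulated change was -0.61, and without scramble PDGF-BB replicate 1 the change with PDGF-BB was -0.779. With TGF-β, the Itgav siRNA libraries at 5307 to 5596 CPM were also below the scramble libraries at 5637 to 6175 CPM, but the difference of -0.12 (95% interval -0.25 to 0.02) did not pass (edgeR adjusted p = 0.14). It passed in 2 alternative fits, with no filter on low counts (adjusted p = 0.0039) and with only the compared groups (adjusted p = 0.012).

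Loxl1 went the same way as Lox. It was lower with Itgav siRNA in PDGF-BB cells (-0.59 ± 0.07, edgeR adjusted p = 2.2e-07; -0.511 without scramble PDGF-BB replicate 1) and in unstimulated cells (-0.39 ± 0.069, edgeR adjusted p = 6.2e-05; -0.362 without scramble unstimulated replicate 1), with no overlap of libraries in either medium. With TGF-β its libraries overlapped and the difference was -0.01, with a 95% interval from -0.15 to 0.12 (edgeR adjusted p = 0.89). Loxl2 was lower in PDGF-BB cells (-0.27 ± 0.051, edgeR adjusted p = 0.00011; -0.293 without scramble PDGF-BB replicate 1). Its differences with TGF-β (-0.04, interval -0.14 to 0.07) and without a stimulus (-0.05, interval -0.16 to 0.05) did not pass, and its libraries overlapped there. Gm27177, opposite Loxl2, averaged 40.7 ± 2.15 in Itgav siRNA and 31.0 ± 4.90 in scramble cells with PDGF-BB, in CPM of all counts. The part of shared reads in the Loxl2 difference was not tested.

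Loxl3 was the member that rose with Itgav siRNA. With TGF-β it was 1.36-fold higher (0.44 ± 0.047, edgeR adjusted p = 5.7e-08) and without a stimulus 1.23-fold higher (0.30 ± 0.05, edgeR adjusted p = 2.5e-05; 0.339 without scramble unstimulated replicate 1), with every Itgav siRNA library above every scramble library. With PDGF-BB the libraries overlapped at 104 to 114 CPM in Itgav siRNA and 100.2 to 114 CPM in scramble cells, and the difference was 0.04 with a 95% interval from -0.06 to 0.14 (edgeR adjusted p = 0.53). Htra2, opposite Loxl3, averaged 28.8 ± 0.169 in Itgav siRNA and 39.1 ± 2.00 in scramble cells with TGF-β, in CPM of all counts. It thus went the other way, and the part of shared reads in the Loxl3 difference was not tested.

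Loxl4 was lower with Itgav siRNA in all 3 media. With TGF-β it fell to 58.5% of the scramble level (-0.77 ± 0.065, edgeR adjusted p = 1.4e-09), the largest siRNA difference in the family, and with PDGF-BB to 73.4% (-0.45 ± 0.069, edgeR adjusted p = 9.2e-06; -0.437 without scramble PDGF-BB replicate 1). Without a stimulus the difference was small (-0.19 ± 0.072, edgeR adjusted p = 0.03). That last call was lost when scramble unstimulated replicate 2 or 3 or Itgav siRNA unstimulated replicate 1 or 3 was left out, with adjusted p of 0.054, 0.14, 0.074 and 0.18 in that order. In all 3 media the libraries of the groups did not overlap.

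The difference of the siRNA effect between media was tested in the same model. The effect with TGF-β minus that without a stimulus was called for 3 of the 5 genes, where 23.2% of all genes were called. It was 0.42 ± 0.091 for Lox (edgeR adjusted p = 0.0017) and 0.37 ± 0.094 for Loxl1 (edgeR adjusted p = 0.0058), so the lowering of these genes by Itgav siRNA was smaller with TGF-β. For Loxl4 it was -0.58 ± 0.097 (edgeR adjusted p = 0.0001), so its lowering was larger with TGF-β. For Loxl2 (0.02, 95% interval -0.13 to 0.17) and Loxl3 (0.14, edgeR adjusted p = 0.15) it did not pass. All 3 calls held in each of 12 fits that left out 1 library.

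The effect with PDGF-BB minus that without a stimulus was called for 2 of the 5 genes, where 18.8% of all genes were called: Loxl3 at -0.26 ± 0.07 (edgeR adjusted p = 0.011) and Loxl2 at -0.22 ± 0.073 (edgeR adjusted p = 0.042). The call for Loxl2 was lost in 10 of 12 fits that left out 1 library, with adjusted p up to 0.096; it was kept when scramble PDGF-BB replicate 1 or Itgav siRNA PDGF-BB replicate 2 was left out. For Lox (-0.15, 95% interval -0.34 to 0.04) the difference did not pass, although it did without scramble PDGF-BB replicate 1 (-0.246, edgeR adjusted p = 0.032). It did not pass for Loxl1 (-0.20, edgeR adjusted p = 0.16) and Loxl4 (-0.26, edgeR adjusted p = 0.078) either, though it did for Loxl1 without scramble PDGF-BB replicate 2 (adjusted p = 0.04) and for Loxl4 without Itgav siRNA unstimulated replicate 3 (adjusted p = 0.045).

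**Figure D3:**
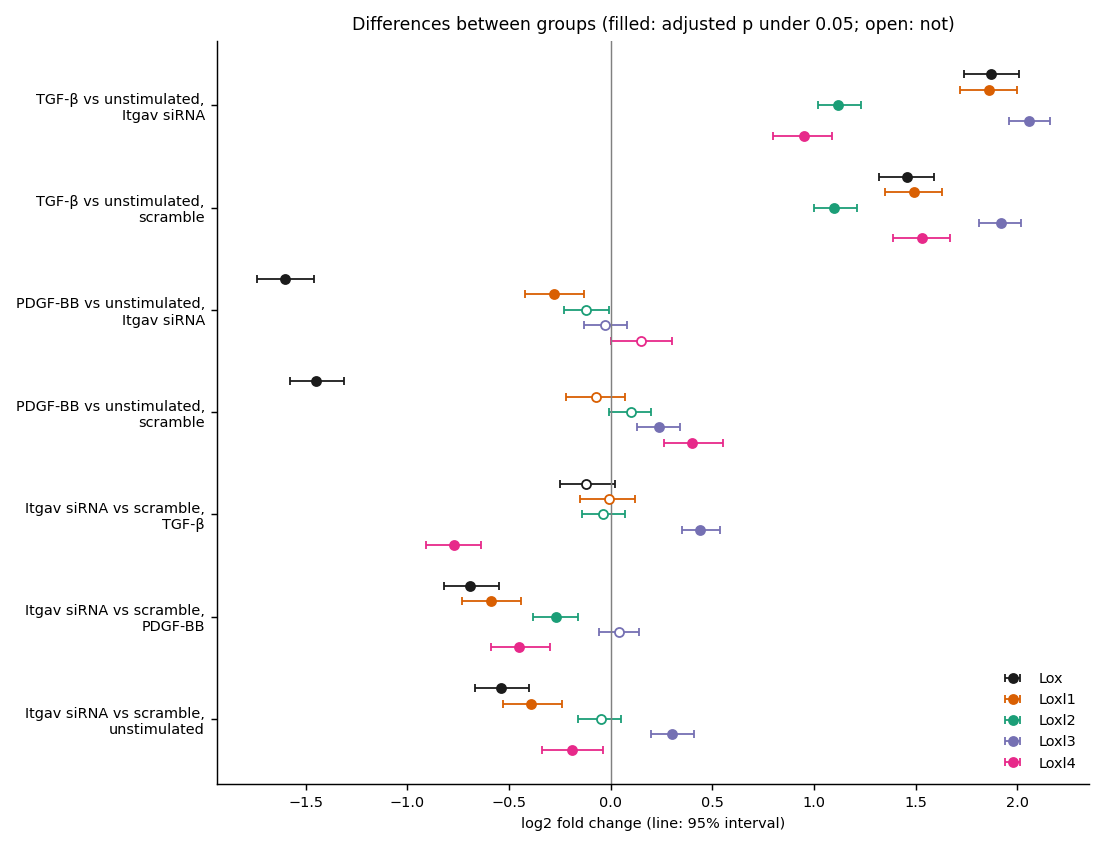
Log2 fold change of the 5 lysyl oxidase genes in 7 comparisons, with lines for 95% intervals; filled points have an edgeR adjusted p under 0.05 and open points do not. All points lie right of 0 for TGF-β, Lox alone is far left of 0 for PDGF-BB (-1.60 and -1.45), and with Itgav siRNA Loxl3 lies at or right of 0 while Loxl4 lies left of it.

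Across the 6 groups each gene had its own order of levels. For Lox the order was scramble TGF-β, Itgav siRNA TGF-β, scramble unstimulated, Itgav siRNA unstimulated, scramble PDGF-BB and Itgav siRNA PDGF-BB, from high to low, with no overlap between neighbours and a 12.04-fold span of group means. Loxl1 spanned 4.44-fold between scramble TGF-β and Itgav siRNA PDGF-BB, and neither its 2 TGF-β groups nor its scramble PDGF-BB and scramble unstimulated groups were separate. Loxl2 had the smallest span, 2.42-fold, with overlap between its 2 TGF-β groups and between its 2 unstimulated groups. Loxl3 spanned 5.14-fold between Itgav siRNA TGF-β and scramble unstimulated, and its Itgav siRNA unstimulated, Itgav siRNA PDGF-BB and scramble PDGF-BB groups overlapped in that order. Loxl4 spanned 3.29-fold between scramble TGF-β and Itgav siRNA unstimulated, and its Itgav siRNA PDGF-BB group overlapped both unstimulated groups, which did not overlap each other.

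Lox alone divided its counts between 2 abundant transcripts. ENSMUST00000171470 starts at 52529867 with a first exon of 37 bases and has 8 exons, and ENSMUST00000025409 starts at 52529674 with a first exon of 958 bases and has 7 exons. Both have a coding length of 1233 bases, and they differ in start site and first exon. The main transcript of Loxl1, Loxl2, Loxl3 and Loxl4 held a mean of at least 93.1% of the gene's estimated counts in every group. The upstream Lox transcript, ENSMUST00000171470, held 60.4, 52.0 and 56.05% of the Lox counts in Itgav siRNA libraries with PDGF-BB, against 71.1, 68.3 and 68.7% in scramble libraries with PDGF-BB. The 2 groups did not overlap and differed by -13.2 percentage points (exact permutation test, two-sided p = 0.1, the smallest that 3 against 3 libraries allow, and 0.175 after adjustment over 7 comparisons).

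Its share was 57.4% ± 2.66 in Itgav siRNA and 60.1% ± 3.02 in scramble cells with TGF-β, which overlapped, and 60.8% ± 2.83 in Itgav siRNA and 65.4% ± 0.422 in scramble cells without a stimulus, which did not. In a fit of all 39762 transcripts, a setting chosen after seeing the data, ENSMUST00000171470 was lower with Itgav siRNA in PDGF-BB cells (-1.02 ± 0.066, edgeR adjusted p = 2.2e-08), where 23.0% of all transcripts were called. ENSMUST00000025409 changed by -0.20 ± 0.13 in the same comparison and was not called (edgeR adjusted p = 0.32). The difference between the 2 transcripts was not tested in that fit, and these counts are estimates that divide shared reads. AC161119.1, opposite Lox, spans both start sites. It averaged 0.946 ± 0.239 in Itgav siRNA and 4.29 ± 1.15 in scramble cells with PDGF-BB, in CPM of all counts. The part of reads shared with it in these Lox transcript differences was not tested.

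**Figure D4:**
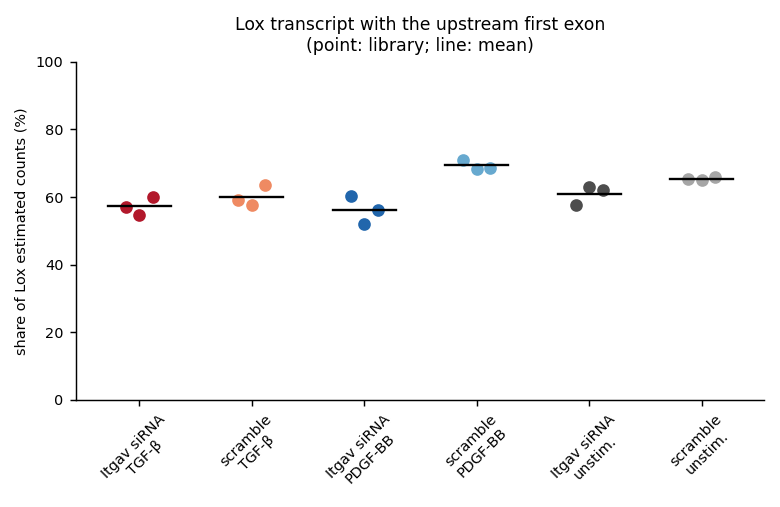
Share of the Lox estimated counts assigned to the transcript with the upstream first exon, in percent, in the 6 groups; points are libraries and lines means of 3. Scramble cells with PDGF-BB lie highest, at 68.3 to 71.1%, and Itgav siRNA cells with PDGF-BB at 52.0 to 60.4%.

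The substrates of the family, elastin and 10 fibrillar and network collagen chains, rose with TGF-β as well. In Itgav siRNA cells all 11 were called higher (median log2 fold change 1.87), and in scramble cells 10 of 11 were called higher (median 1.48), where 27.9% of all genes in Itgav siRNA and 23.4% in scramble cells were called higher. The changes were led by Eln, which encodes elastin, at 8388 ± 157 CPM with TGF-β and 399 ± 21.9 CPM without a stimulus in Itgav siRNA cells (4.39 ± 0.056, edgeR adjusted p = 1.2e-23). In scramble cells Eln averaged 5697 ± 236 CPM with TGF-β and 352 ± 10.2 CPM without a stimulus (4.02 ± 0.055, edgeR adjusted p = 8e-23). Col11a1 (3.40 in Itgav siRNA and 2.74 in scramble cells) and Col2a1 (3.21 in Itgav siRNA and 2.77 in scramble cells), both chains of cartilage-type fibrils, followed on the log2 fold change scale.

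With PDGF-BB the substrates split. In Itgav siRNA cells 4 of 11 were called higher and 3 lower, and in scramble cells 2 higher and 5 lower, with medians of 0.08 and -0.13, where 36.4% of all genes in Itgav siRNA and 36.1% in scramble cells were called. The clearest falls in Itgav siRNA cells were those of Eln (-1.40), Col2a1 (-1.45) and Col11a1 (-0.78), and in scramble cells those of Col11a1 (-1.28), Col2a1 (-0.93) and Col3a1 (-0.74). Itgav siRNA against scramble gave 8 higher and 2 lower with TGF-β (median 0.39), 6 higher and 4 lower with PDGF-BB (median 0.25), and 6 higher and 4 lower without a stimulus (median 0.18). Of all genes, 48.4% were called with TGF-β, 59.3% with PDGF-BB and 53.4% without a stimulus in these comparisons. Eln was higher with Itgav siRNA in TGF-β cells (0.56 ± 0.049, edgeR adjusted p = 2.7e-09) and lower in PDGF-BB cells (-0.79 ± 0.051, edgeR adjusted p = 1.5e-11). Col2a1 was lower with Itgav siRNA in all 3 media (-0.69 with TGF-β, -1.65 with PDGF-BB and -1.13 without a stimulus).

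Genes that process or hold the enzymes showed mixed changes. Of 13 listed proteases, enhancers and scaffold proteins 12 were tested, and TGF-β raised 9 and lowered 2 in either siRNA state, where 57.5% of all genes in Itgav siRNA and 48.3% in scramble cells were called. Postn, the matrix protein periostin, which brings Bmp1 to the Lox propeptide, averaged 725 ± 49.9 CPM with TGF-β and 26.3 ± 0.388 CPM without a stimulus in Itgav siRNA cells (4.78 ± 0.092, edgeR adjusted p = 5.6e-21). In scramble cells it averaged 146 ± 12.7 CPM with TGF-β and 13.5 ± 1.91 CPM without a stimulus (3.44 ± 0.096, edgeR adjusted p = 8.4e-18). The Bmp1 relative Tll1 rose by 2.49 in Itgav siRNA and 2.21 in scramble cells on the log2 scale. Fbln5, which holds Loxl1 on elastic fibres, was called higher with TGF-β in Itgav siRNA (0.80 ± 0.042) and scramble cells (1.12 ± 0.042), and lower with PDGF-BB in Itgav siRNA (-1.39 ± 0.043) and scramble cells (-1.13 ± 0.043).

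With PDGF-BB, 4 of these 12 genes were called higher and 7 lower in Itgav siRNA cells, and 3 higher and 5 lower in scramble cells, against 36.4% of all genes called in Itgav siRNA and 36.1% in scramble cells. Fmod, a collagen-binding proteoglycan that also binds Lox, averaged 24.7 ± 0.905 CPM with PDGF-BB and 170.3 ± 4.61 CPM without a stimulus in Itgav siRNA cells (-2.78 ± 0.054, edgeR adjusted p = 3.6e-20). In scramble cells it averaged 28.5 ± 1.16 CPM with PDGF-BB and 239 ± 3.63 CPM without a stimulus (-3.07 ± 0.053, edgeR adjusted p = 2.2e-20). Itgav siRNA raised 7, 6 and 6 of the 12 and lowered 3, 3 and 2 with TGF-β, with PDGF-BB and without a stimulus, where 48.4%, 59.3% and 53.4% of all genes were called. Postn was higher with the siRNA in each medium (2.31, 1.39 and 0.96), and so was Pcolce2, an enhancer of procollagen cleavage (1.25, 0.80 and 0.63, in the same order).

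Of 9 listed genes for copper supply and lysine hydroxylation, the step before crosslinking, 8 were tested and TGF-β raised 7 in either siRNA state, with medians of 1.23 in Itgav siRNA and 0.71 in scramble cells, where 27.9% of all genes in Itgav siRNA and 23.4% in scramble cells were called higher. Plod2, the hydroxylase of the ends of collagen chains, averaged 649 ± 14.2 CPM with TGF-β and 201 ± 4.50 CPM without a stimulus in Itgav siRNA cells (1.69 ± 0.061, edgeR adjusted p = 2.9e-16). In scramble cells it averaged 1169 ± 93.4 CPM with TGF-β and 410.0 ± 25.9 CPM without a stimulus (1.51 ± 0.06, edgeR adjusted p = 3.3e-15). Like Lox, Plod2 was lower with PDGF-BB (-0.49 in Itgav siRNA and -1.22 in scramble cells). Itgav siRNA raised 5, 4 and 5 of the 8 and lowered 1, 2 and 3 in these media in the same order, beside 48.4%, 59.3% and 53.4% of all genes called. With TGF-β it lowered Plod2 (-0.85 ± 0.059, edgeR adjusted p = 6.9e-11) and raised Plod1, which hydroxylates the helix (0.92 ± 0.048, edgeR adjusted p = 6.1e-13). It also raised Fkbp10, a chaperone in lysine hydroxylation (0.97 ± 0.06, edgeR adjusted p = 9.5e-12).

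In PDGF-BB cells the copper pump Atp7a, which loads secreted copper enzymes, was higher with Itgav siRNA (1.31 ± 0.15, edgeR adjusted p = 1.1e-07), and the copper chaperone Atox1 was lower (-0.81 ± 0.11, edgeR adjusted p = 1.6e-06). Of the copper amine oxidases outside the family, Aoc2 and Aoc3 were tested. Aoc3 averaged at most 1.495 CPM in any group, and was called lower with TGF-β in Itgav siRNA cells (-1.78 ± 0.47, edgeR adjusted p = 0.0024), with PDGF-BB in scramble cells (-1.31 ± 0.43, edgeR adjusted p = 0.02) and with Itgav siRNA in TGF-β cells (-1.40 ± 0.48, edgeR adjusted p = 0.021).

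**Figure D5:**
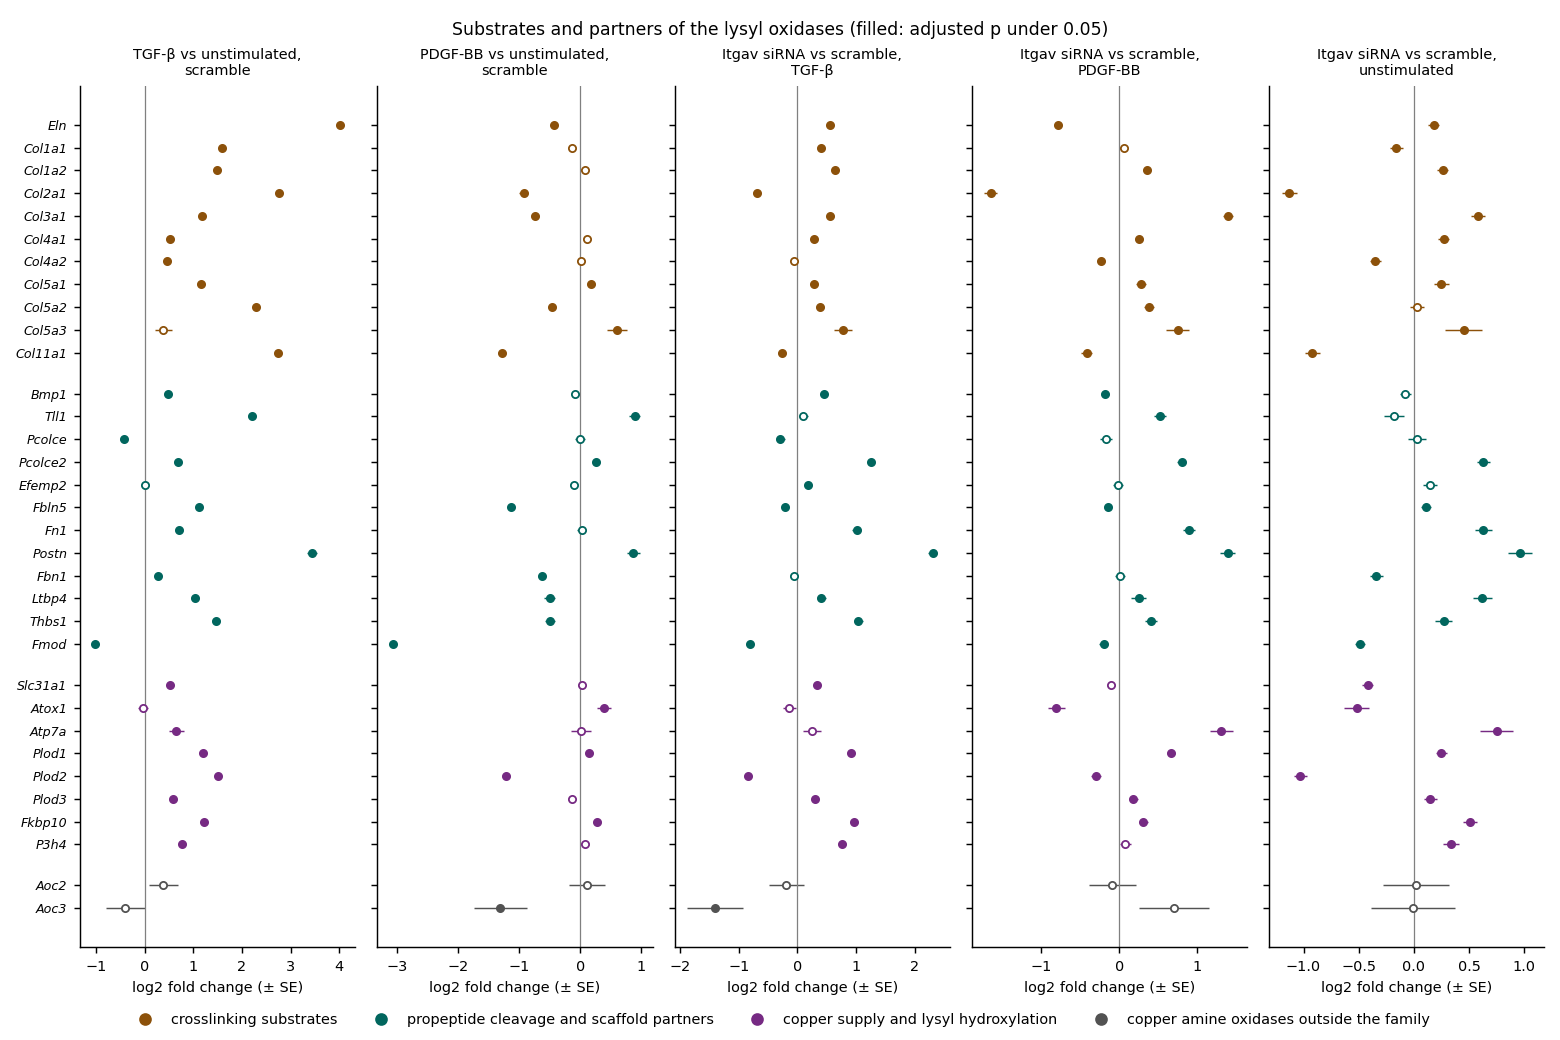
Log2 fold changes (points, with lines for standard errors) of the substrates, partners, copper and hydroxylation genes and outside amine oxidases in 5 comparisons; filled points have an edgeR adjusted p under 0.05. TGF-β moves Eln (4.02), Postn (3.44) and Col2a1 (2.77) furthest to the right, PDGF-BB moves Fmod (-3.07) furthest to the left, and the siRNA panels show Postn right of 0 and Col2a1 left of it in each medium.

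The genes whose profile over the 18 libraries was most like that of each member were sought by Pearson's r of log2 CPM, among the 10467 genes that averaged 5 CPM or more. All these libraries come from 6 groups, and the TGF-β libraries are high for every member, so high values of r are common. Within the family r lay between 0.715 for Lox with Loxl4 and 0.977 for Loxl1 with Loxl2. Lox was most like Ephx2, an epoxide hydrolase (r = 0.993), Lrrc75b (0.993) and Hs6st2, a heparan sulfate sulfotransferase (0.992). Ephx2 averaged 40.5 ± 1.26 CPM in Itgav siRNA and 43.5 ± 1.98 CPM in scramble cells with TGF-β, 6.54 ± 0.196 CPM in Itgav siRNA and 11.1 ± 1.02 CPM in scramble cells with PDGF-BB, and 16.2 ± 0.375 CPM in Itgav siRNA and 22.7 ± 0.770 CPM in scramble cells without a stimulus. Its groups thus stood in the order of those of Lox.

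Loxl1 was most like Ppme1, a phosphatase methylesterase (r = 0.995), and Fam210b (0.990). Loxl2 was most like the proline synthesis enzyme Aldh18a1 (0.993) and the microfibril protein Ltbp2 (0.991). Loxl3 was most like the connexin Gja3 (0.992), the amino acid transporter Slc7a6 (0.991) and the mitochondrial folate enzyme Aldh1l2 (0.990). Gja3 averaged 40.6 ± 2.44 CPM in Itgav siRNA and 16.5 ± 0.169 CPM in scramble cells with TGF-β and at most 2.14 CPM in the other groups. Loxl4 had lower values, with the arginine and lysine transporter Slc7a1 (0.972) and the asparaginyl-tRNA synthetase Nars (0.958). Slc7a1 averaged 84.1 ± 2.36 CPM in Itgav siRNA and 114 ± 3.86 CPM in scramble cells with TGF-β, and so, like Loxl4, was lower with the siRNA there.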

How the data were processed

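Gene and transcript tables held StringTie estimated counts per library as the authors deposited them. Per the submitters' processing notes, HISAT2 2.2.1, StringTie 2.1.6 and the mm10 build were used; the sources used here give neither filters nor the strand of counting. Of values above 0, 76.2% were whole, and all counts were rounded before testing. Tests used edgeR 4.0.16 in R 4.3.3 (quasi-likelihood test, 18 libraries, 1 coefficient per group, TMM, filterByExpr with a minimum count of 10, Benjamini-Hochberg adjustment over 15832 genes), and left 12 residual degrees of freedom. The filter kept at least 99.9% of each library's counts. The biological coefficient of variation was 6.01%, and TMM factors lay between 0.925 and 1.07. Intervals are 95%.

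Levels are CPM, divided by union exon length from GENCODE M21 for CPM per kilobase; 90.7% of gene IDs, with 99.3% of counts, were in that annotation. The scripts were tested on simulated data. Members and lists were chosen with earlier results of these data known. Genes named besides the 5 members and Itgav were the 3 most alike in profile per member (mean of at least 5 CPM) and, per list and comparison, up to 3 called genes with the smallest p; some are also given in other comparisons, and some genes alike in profile are not reported here. Alternatives were DESeq2 1.42.0, its size factors, other filters, a replicate block, only the compared groups, each library left out, summed transcript counts, and the transcript table, the last chosen after seeing the data. Same-numbered libraries of different groups did not deviate together: their 45 correlations lay between -0.088 and 0.097.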

Additional observations from a re-analysis of the deposited data

Results flagged for a closer look

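The effect of Itgav siRNA differed between media for some members, by a test of the difference itself in edgeR. With TGF-β minus without a stimulus, the log2 difference was 0.42 for Lox, 0.37 for Loxl1 and -0.58 for Loxl4. With PDGF-BB minus without a stimulus, it was -0.22 for Loxl2 and -0.26 for Loxl3. The call for Loxl2 was lost in 10 of 12 fits that left out 1 library, and the other 4 calls held in 12 of 12. Both differences share the unstimulated libraries. The groups of 3 libraries were too small to look for single outlying libraries by a range test.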

How the results depend on the processing

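Of 645 fits of the members under alternatives, 611 kept direction and side of the threshold, 15 lost a call, 8 gained one and 11 changed sign, all 11 for differences that were not called. The number of members called for the difference between PDGF-BB and no stimulus was 1 with DESeq2 size factors, against 2, and ranged from 1 to 3 with each library left out. Sign changes of Itgav siRNA with TGF-β came for Loxl1 (0.004 with a mean of at least 1 CPM; -0.076 to 0.069 with each library left out) and Loxl2 (-0.082 to 0.006). Leaving out libraries also gave -0.003 to 0.084 for Loxl3 under the siRNA with PDGF-BB, -0.059 to 0.004 for Loxl3 with PDGF-BB in Itgav siRNA cells, and -0.032 to 0.056 for Loxl2 in the TGF-β difference. In the transcript table the minor Loxl4 transcript ENSMUST00000164786 gave -0.37 in Itgav siRNA and -0.33 in scramble cells with PDGF-BB and 0.12 for the TGF-β difference, and ENSMUST00000025409 of Lox gave 0.18 for the PDGF-BB difference; none was called and the cause was not tested. A further 11 transcript fits kept the direction of the gene but lost its call, 5 of them of that minor Loxl4 transcript. The others were ENSMUST00000025409 under the siRNA without a stimulus (-0.38, edgeR adjusted p = 0.052), with PDGF-BB (-0.20, 0.32) and in the TGF-β difference (0.35, 0.39), the main Loxl4 transcript under the siRNA without a stimulus (-0.19, 0.095), and the main transcripts of Loxl2 (-0.20, 0.23) and Loxl3 (-0.25, 0.082) in the PDGF-BB difference.

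The replicate numbers share no stated source. With a replicate block, Loxl2 was called lower with PDGF-BB in Itgav siRNA cells (-0.121, edgeR adjusted p = 0.031), no other member's call changed, and 7779 genes were called with TGF-β in scramble cells, against 7639. With a count-weighted transcript length, 15 of 30 levels per kilobase moved by more than 1 SD. The number of libraries limits precision: the 95% interval of the siRNA difference of Loxl1 with TGF-β was -0.15 to 0.12.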
